A study of Mus musculus with 45 samples.

Results

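Matrix metalloproteinases and their inhibitors were followed through 3 tissue preparations of the mouse uterus in wildtype (WT) and Plag1 knockout (Plag1KO, or KO) females. The 10 genes described here, of 24422 gene rows in the table, were chosen by symbol: the proteases Mmp2, Mmp3, Mmp7, Mmp10, Mmp11, Mmp14 and Adamts1 and the inhibitors Timp1, Timp2 and Timp3. All 10 symbols had a row. The 7 WT and 7 KO mice were sexually mature CD-1 females, an outbred stock, and all of them, controls included, had received 5 IU of pregnant mare serum and 5 IU of human chorionic gonadotropin to induce superovulation, with the uterus taken on the day after the second hormone. From each mouse there was a piece of whole uterus, the endometrium (mucosa scraped from the opened horn) and the myometrium (the muscle wall left behind), which gave 6 groups of 7 mice and 42 mouse-and-tissue samples. The KO allele is a germline deletion, with lacZ in place of the Plag1 reading frame, and is not restricted to the uterus.

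Matrix metalloproteinases are zinc enzymes that are made as inactive proenzymes and, once activated outside the cell, cut collagens, proteoglycans, laminin and other matrix proteins. TIMPs bind the active site of these enzymes and block it, so the tissue balance of the families sets how fast matrix is turned over. The uterus is a classic setting for them, because its lining is remodelled over the hormonal cycle and opened up at implantation. Another reason is that matrilysin (Mmp7) is made by epithelium while most other members are made by stromal cells.

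RNA was measured with STRT RNA-seq, which captures the 5′ end of each polyadenylated transcript and counts tagged molecules. Levels are given in CPM, counts scaled to a library total of 1000000, with totals adjusted by TMM (trimmed mean of M values). A transcript adds 1 end whatever its length, so levels of different genes were compared without a length correction. Total counts ran from 264095 to 1232992 per library, and a floor of 3 counts equalled 1.24 to 9.81 CPM per sample. In the smooth-muscle marker list (Acta2, Des, Myh11, Cnn1 and Actg2) all 5 genes were lower in endometrium than in myometrium in both genotypes, and in the epithelial list (Krt8, Krt18, Krt19, Epcam, Cdh1 and Cldn4) all 6 were higher, as the tissue labels state. Samples that stood apart were the endometrium of WT mouse 3 and of KO mouse 13, whose summed smooth-muscle markers reached 10710 and 10966 CPM against medians of 1594 and 573 CPM in their groups, and the myometrium of WT mouse 5, whose summed epithelial markers reached 709.8 CPM against a median of 159 CPM. In the endometrium of WT mouse 8 the oviduct gene Ovgp1 stood at 5052 CPM, against a group median of 73.7 CPM. Plag1 itself had 7 counts in all, 2 in WT and 5 in KO samples and never more than 1 in a sample. The 5′ end of its transcript lies outside the replaced reading frame, so these counts do not check the labels. In bulk tissue of this kind fewer cells of a type and less RNA per cell cannot be told apart.

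Timp2 was the most abundant, with a mean of 202.7 CPM over the 42 samples, followed by Mmp14 (165 CPM), Mmp2 (141 CPM) and Timp3 (101.0 CPM). Timp1 (42.5 CPM), Adamts1 (37.9 CPM), Mmp7 (37.2 CPM), Mmp11 (29.2 CPM) and Mmp3 (12.5 CPM) made up a middle tier. Mmp10 was near absent at this depth, with 21 counts in all, in 11 of 42 samples, and above the floor in 1. Counts of Mmp3 were above the floor in 28 and those of Mmp7 in 29 of the 42 samples, and 7 members (all but Mmp3, Mmp7 and Mmp10) were above it in at least 40.

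**Figure D1:**
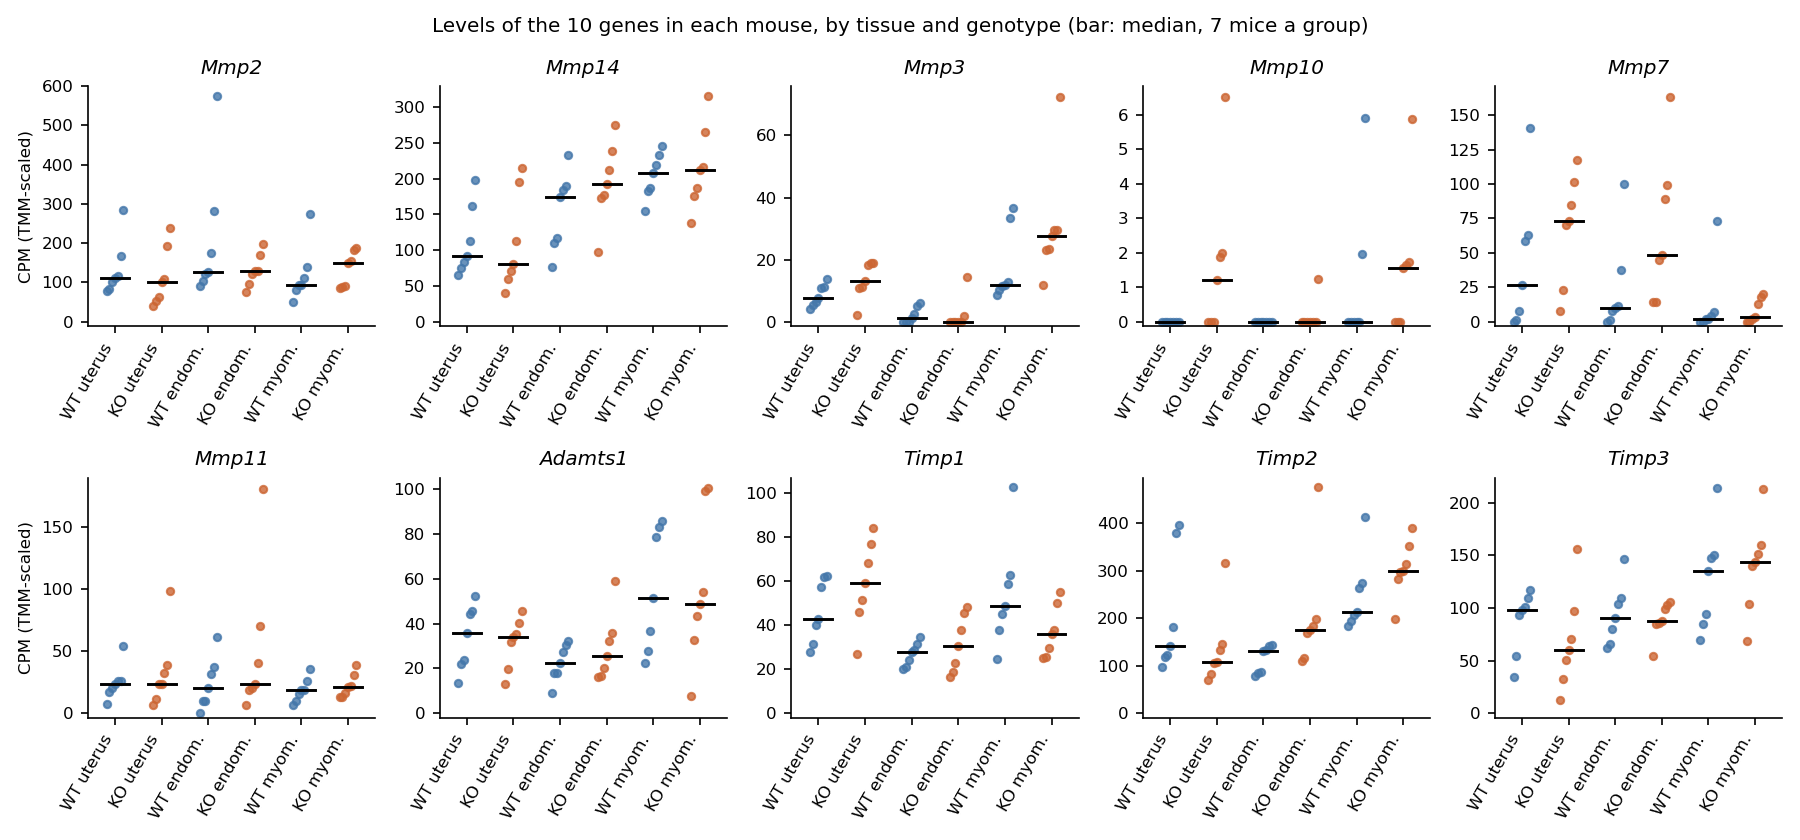
Level of each of the 10 genes in each mouse, in TMM-scaled CPM on axes that differ between panels, for WT (blue) and KO (orange) uterus, endometrium (endom.) and myometrium (myom.), with 7 points a group and a bar at the median. Mmp3 and Timp2 sat highest in myometrium, Mmp7 had its lowest medians there, with 1 WT mouse at 72.9 CPM, and WT and KO points of a tissue overlapped in every panel.

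Among the 6 Mmp genes followed here Mmp2 and Mmp14 had the highest levels. Of the summed CPM of these 6, which leaves out other family genes such as Mmp23 (a mean of 162.2 CPM in WT uterus, named after its values were seen), their median share was lowest in KO uterus, at 62.6%, and highest in WT endometrium, at 92.3%. The share of Timp2 in the summed TIMP level had group medians from 48.3% in WT endometrium to 64.2% in KO myometrium. The ratio of the summed TIMP level to the summed Mmp level had a median of 1.05 in WT myometrium (range 0.853 to 1.80) and of 0.624 in WT endometrium (0.347 to 1.01). In KO the medians were 1.12 in myometrium (0.877 to 1.55) and 0.765 in endometrium (0.356 to 1.45), and in whole uterus they were 1.03 for WT and 0.677 for KO. These ratios are a description with no test, and the ranges of the tissues overlapped in both genotypes.

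Mmp3, Mmp10 and Mmp7 lie close together on chromosome 9 (NCBIM37 chr9:7445822-7455972, chr9:7502352-7510238 and chr9:7692086-7699585, all on the plus strand), and they were also the 3 members whose levels were most often at or near the floor. Their promoter sequences are shown because they differ as a group from those of the other members. RefSeq promoter windows (build GRCm38.p6) were matched for 9 members, and each window was searched over 250 bases before the transcript start, on both strands, for the AP-1 motif TGANTCA, the TATA motif TATAAA and the GC box GGGCGG. The last 150 bases before the start are printed 5′ to 3′, with matches to these motifs in capitals; Mmp3 is chr9:7445672-7445821, Mmp10 is chr9:7502192-7502341, Mmp7 is chr9:7691940-7692089 and Timp2, shown as a contrast, is chr11:118355412-118355561 on the minus strand.
Mmp3: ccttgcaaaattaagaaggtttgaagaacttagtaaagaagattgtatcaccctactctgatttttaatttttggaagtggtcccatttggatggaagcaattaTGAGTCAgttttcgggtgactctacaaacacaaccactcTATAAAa
Mmp10: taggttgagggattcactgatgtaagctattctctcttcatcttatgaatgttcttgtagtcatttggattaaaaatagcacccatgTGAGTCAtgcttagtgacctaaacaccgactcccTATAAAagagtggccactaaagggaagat
Mmp7: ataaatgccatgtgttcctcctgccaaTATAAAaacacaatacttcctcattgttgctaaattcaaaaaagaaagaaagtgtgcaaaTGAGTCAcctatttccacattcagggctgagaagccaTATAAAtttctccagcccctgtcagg
Timp2: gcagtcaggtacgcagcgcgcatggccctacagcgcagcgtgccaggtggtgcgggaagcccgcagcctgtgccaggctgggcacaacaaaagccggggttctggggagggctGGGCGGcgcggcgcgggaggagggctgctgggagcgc

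All 3 of the chromosome 9 promoters held the AP-1 letters, each time as TGAGTCA, and none of the other 6 did. In the set of 32851 promoters the motif was present in 6.75%. Each of the 3 also held a TATA match downstream, with 27 to 32 bases between it and the AP-1 match, and Mmp7 held another that began 123 bases before the start. TATA was otherwise found only in Adamts1 among the members, and in 12.4% of all promoters. The GC box was present in the other 6 (Mmp11, Mmp14, Adamts1, Timp1, Timp2 and Timp3) and in none of the 3, against 32.7% of all promoters. The 3 windows were also poor in G and C (37.2% to 38%), where the other 6 held 54.4% to 68% and the median promoter 52.4%. The consensus of PLAG1 itself was matched in Mmp11 and Adamts1, 2 of 9 members, and in 16.8% of all promoters. These are matches of letters in a window, not sites shown to be bound.

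**Figure D2:**
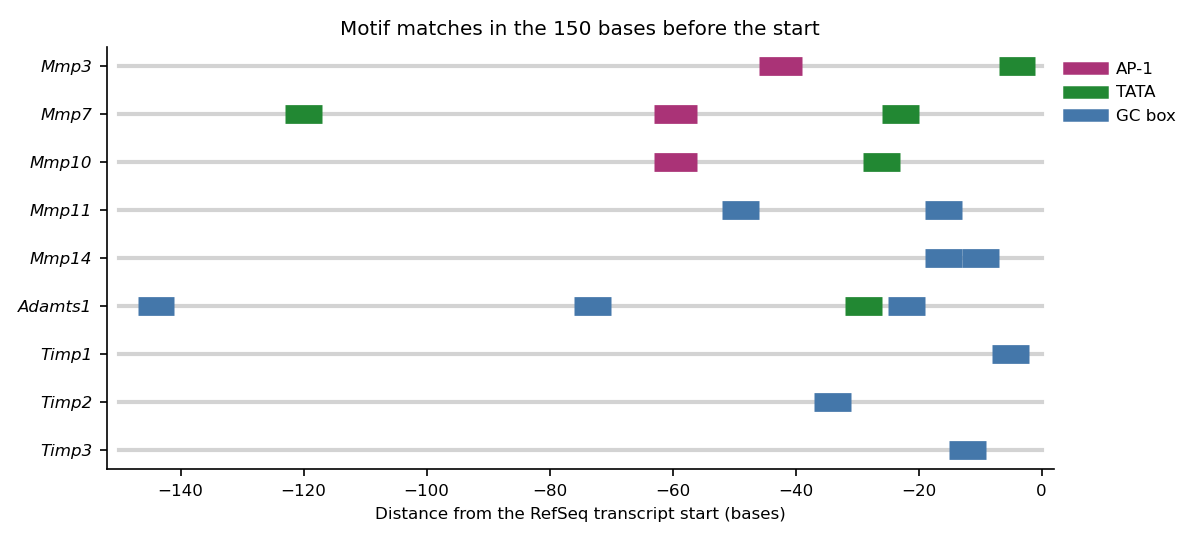
Positions of AP-1, TATA and GC box matches in the 150 bases before the RefSeq transcript start of the 9 members with a promoter entry, with distance in bases on the x axis and 0 at the start. The AP-1 matches fall in Mmp3, Mmp7 and Mmp10, 40 to 63 bases before the start, and GC boxes fall in the other 6 genes.

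The layers of the uterus were compared to ask where in the organ these genes are expressed. In WT mice 4 of the 9 members tested were lower in endometrium than in myometrium (Mmp3, Timp2, Adamts1 and Timp1) and none was higher, where 13.2% of the 13227 genes tested passed the same threshold, 6.81% as higher and 6.39% as lower (edgeR quasi-likelihood test, Benjamini-Hochberg adjusted p under 0.05). In KO mice 2 of 10 were lower (Mmp3 and Timp3) and 1 was higher (Mmp7), where 19.3% of 12969 genes passed, 10.6% as higher and 8.71% as lower. The median log2 fold change of the members was −0.44 in WT and −0.38 in KO, and that of all genes tested was 0.01 and 0.08. At an unadjusted p under 0.05 there were 5 members in WT, where 24.8% of all genes passed, and 6 in KO, where 31% did. By the wells in the labels, uterus lay in plate rows A and D, myometrium in B and E and endometrium in C and F, apart from repeat libraries. Tissue and single plate row therefore cannot be told apart in any comparison of tissues. The 3 tissues of a mouse share its number in the labels. With mouse as a replicate block 5 members passed in each genotype, and Mmp3, Mmp7, Adamts1 and Timp2 were among them in both. The share of all genes that passed is not given for this fit or for the other alternatives. No excess of members is therefore read from counts under them. Scaling to ERCC spike-in RNA moved the median of all genes by 0.20 in WT and 0.50 in KO and left 1 member past the threshold in WT (Mmp3) and 3 in KO (Mmp3, Mmp7 and Mmp11). In KO it also turned the sign of Mmp2, Mmp14 and Timp1, none of them called, from negative to positive. Relative to the shifted median the WT values of Timp2, Adamts1 and Timp1 were −1.17, −1.28 and −0.92. Subtracting that median takes the shift out again. Values given this way, here and for the genes below, are therefore no separate check on the TMM results.

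**Figure D3:**
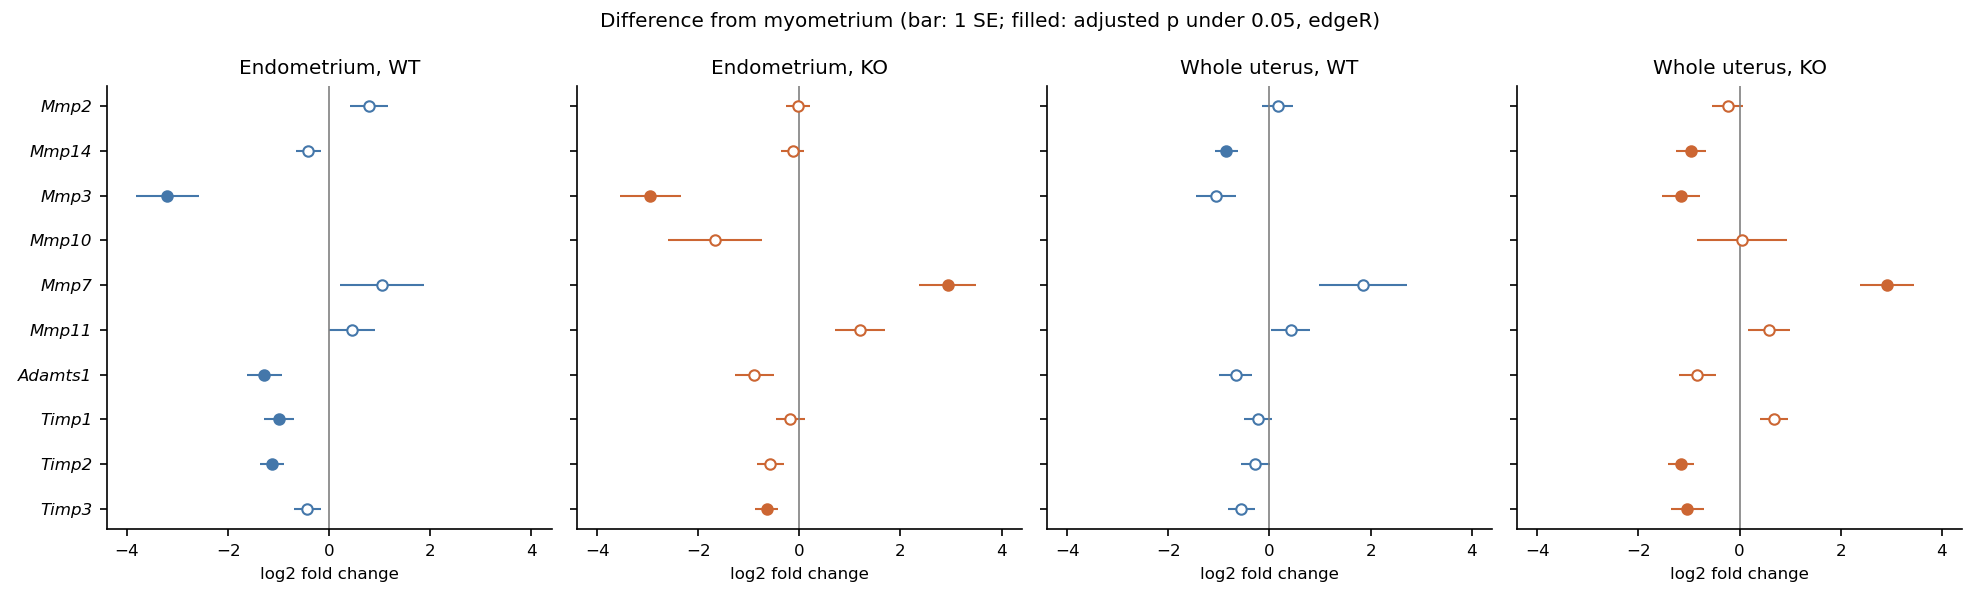
Log2 fold change of each member in endometrium and in whole uterus against myometrium, in WT (blue) and KO (orange), with bars of 1 SE. Filled points passed an adjusted p of 0.05 in edgeR's quasi-likelihood test. Mmp3 lies about −3 in both endometrium panels, and Mmp7 lies near 3 in both KO panels.

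Mmp3, stromelysin-1, which cuts proteoglycans and activates other proenzymes, had the steepest gradient toward muscle. In WT myometrium its lowest, median and highest levels were 8.74, 11.8 and 36.7 CPM, and in WT endometrium they were 0, 1.20 and 6.07 CPM, from 8 counts in all and with 3 samples at 0. The WT groups did not overlap, and endometrium was lower in 7 of 7 mice, with a log2 fold change of −3.20 ± 0.62 (SE, n = 7 mice; adjusted p = 0.00068, edgeR). In KO myometrium the levels were 11.8, 27.7 and 72.3 CPM and in KO endometrium 0, 0 and 14.5 CPM, with 5 samples at 0. Here endometrium was lower in 6 of 7 mice, with a log2 fold change of −2.95 ± 0.61 (adjusted p = 0.00124, edgeR).

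The exception was KO mouse 13, whose endometrium held 35 of the 37 Mmp3 counts of its group and also stood apart in smooth-muscle markers. Without that mouse the difference in KO was −5.76 (adjusted p = 2.0e-07, edgeR), a value that rests on 2 counts in endometrium. The other samples of endometrium with the most Mmp3, WT mice 1 and 3 at 6.07 and 5.21 CPM, had 3054 and 10710 CPM of summed smooth-muscle markers, the highest of the WT group. Their Mmp3 levels rest on 2 and 4 counts, and that of mouse 1 lies under its floor of 9.10 CPM. Over all 42 samples the Pearson correlation of log2 Mmp3 with the log2 marker sum was 0.85, as a description over samples that share tissue, library pool and animal. The marker sum ranged from 363.9 to 10710 CPM in WT and from 210.8 to 10966 CPM in KO endometrium, and from 11368 to 34317 CPM and 14745 to 29819 CPM in myometrium, with none of the 5 genes at 0 in any group. The sum of 8 stroma markers (Vim, Pdgfra, Col1a1, Col3a1, Dcn, Lum, Hand2 and Hoxa11) also ran higher in myometrium (medians 5676 and 9183 CPM in WT and KO) than in endometrium (1883 and 2038 CPM). Of the 8 genes, 4 in WT and 5 in KO were lower in endometrium past the threshold, and the rest did not pass. The correlation of Mmp3 was 0.751 with the stroma sum and −0.605 with the epithelial sum. The part of smooth-muscle, stromal or epithelial cells in the Mmp3 level was not tested. The wells split the plate into rows A to C (8 mice, 5 WT and 3 KO) and D to F (6 mice, 2 WT and 4 KO). The WT difference passed in both, though on 2 mice in rows D to F. The KO difference fell short in rows D to F (log2 fold change −1.99, adjusted p = 0.121, edgeR).

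In whole uterus, which holds both layers, Mmp3 lay between them. Its lowest, median and highest levels were 4.05, 7.56 and 13.9 CPM in WT and 2.12, 13.0 and 19.1 CPM in KO. The difference from myometrium was −1.16 ± 0.38 in KO, lower in 7 of 7 mice (adjusted p = 0.038, edgeR), and −1.06 ± 0.40 in WT (adjusted p = 0.0814). The difference from endometrium was 2.11 ± 0.63 in WT, higher in 7 of 7 mice (adjusted p = 0.0963), and 1.88 ± 0.68 in KO, higher in 6 of 7 (adjusted p = 0.185). With mouse as a replicate block both comparisons with endometrium passed (adjusted p = 0.0466 in WT and 0.0108 in KO, edgeR), and so did the KO comparison without mouse 13 (4.56, adjusted p = 0.00053). The KO difference from myometrium was lost on leaving out any single mouse but 13, with adjusted p from 0.0511 to 0.15 (edgeR).

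Mmp10, stromelysin-2, a close relative of Mmp3, was at 0 in all 14 samples of WT uterus and WT endometrium. A count of 0 there allows up to the floor of each sample, so a low level could not be seen. Its highest level was 6.5 CPM, in a KO uterus. It passed the filter on low counts in 5 of the 10 comparisons and the test in none.

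Mmp7, matrilysin, which is made by uterine epithelium and also processes defensins and growth factor precursors, ran the other way. In KO myometrium the lowest, median and highest levels were 0, 3.46 and 20.2 CPM, in KO endometrium 14.5, 48.5 and 163 CPM, and in KO uterus 8.13, 73.0 and 117.7 CPM. The KO groups overlapped between 14.5 and 20.2 CPM in the first pair, but endometrium was higher in 7 of 7 mice, with a log2 fold change of 2.93 ± 0.57 (7.63-fold; adjusted p = 0.00065, edgeR). Whole uterus was also higher than myometrium in 7 of 7 KO mice, by 2.91 ± 0.53 (7.54-fold; adjusted p = 0.0005, edgeR). Both KO differences passed within plate rows A to C (3 KO mice), within rows D to F (4 KO mice) and with spike-in scaling. Both rest on 36 Mmp7 counts in KO myometrium, where 4 of 7 samples were at or under the floor, so the size of the folds is uncertain.

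In WT the same gene was more scattered. The levels were 0, 2.18 and 72.9 CPM in myometrium, 0, 10.2 and 100.2 CPM in endometrium and 0, 26.5 and 140.5 CPM in uterus, so that all 3 groups overlapped. Endometrium was higher than myometrium in 4 of 7 mice, with a log2 fold change of 1.04 ± 0.82 (adjusted p = 0.478, edgeR), and uterus was higher in 5 of 7, by 1.84 ± 0.87 (adjusted p = 0.172). With mouse as a replicate block these became 1.41 (adjusted p = 0.0465) and 2.27 (adjusted p = 0.0021). The high myometrium value came from mouse 5, the sample that stood apart in epithelial markers, and without that mouse the differences were 3.00 (adjusted p = 0.0198) and 3.79 (adjusted p = 0.00804). Mouse 5 held 37 of the 48 Mmp7 counts of WT myometrium, where 5 of 7 samples were at or under the floor, so these 2 values rest on few counts. The summed epithelial markers ranged from 741.7 to 3591 CPM in WT and 1171 to 3053 CPM in KO endometrium and from 81.3 to 709.8 CPM and 87.9 to 555.5 CPM in myometrium, with none of the 6 genes at 0 in any group, and their part in the Mmp7 level was not tested. The difference between endometrium and myometrium was not shown to depend on genotype, with an interaction of 1.87 ± 1.14 on the log2 scale (adjusted p = 0.993, edgeR).

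High and low Mmp7 levels tended to recur in the tissues of a mouse. Mouse 10 had the highest level of the WT mice in both uterus (140.5 CPM) and endometrium (100.2 CPM), and mice 1 and 12 had the lowest pair in both (1.06 and 0 CPM in uterus, 0 and 1.20 CPM in endometrium). Among the KO mice, 9 and 14 were the lowest pair in uterus (8.13 and 23.1 CPM) and in endometrium (14.6 and 14.5 CPM), while mice 2, 4 and 6 led the endometrium at 99.2, 163 and 89.5 CPM. Mice 2, 4 and 6 are also the 3 KO mice of plate rows A to C. The order was not kept in uterus, where mice 11 and 13 (101.7 and 84.7 CPM) stood above mice 4 and 6 (73.0 and 70.3 CPM). No mice were grouped by these levels for any test.

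**Figure D4:**
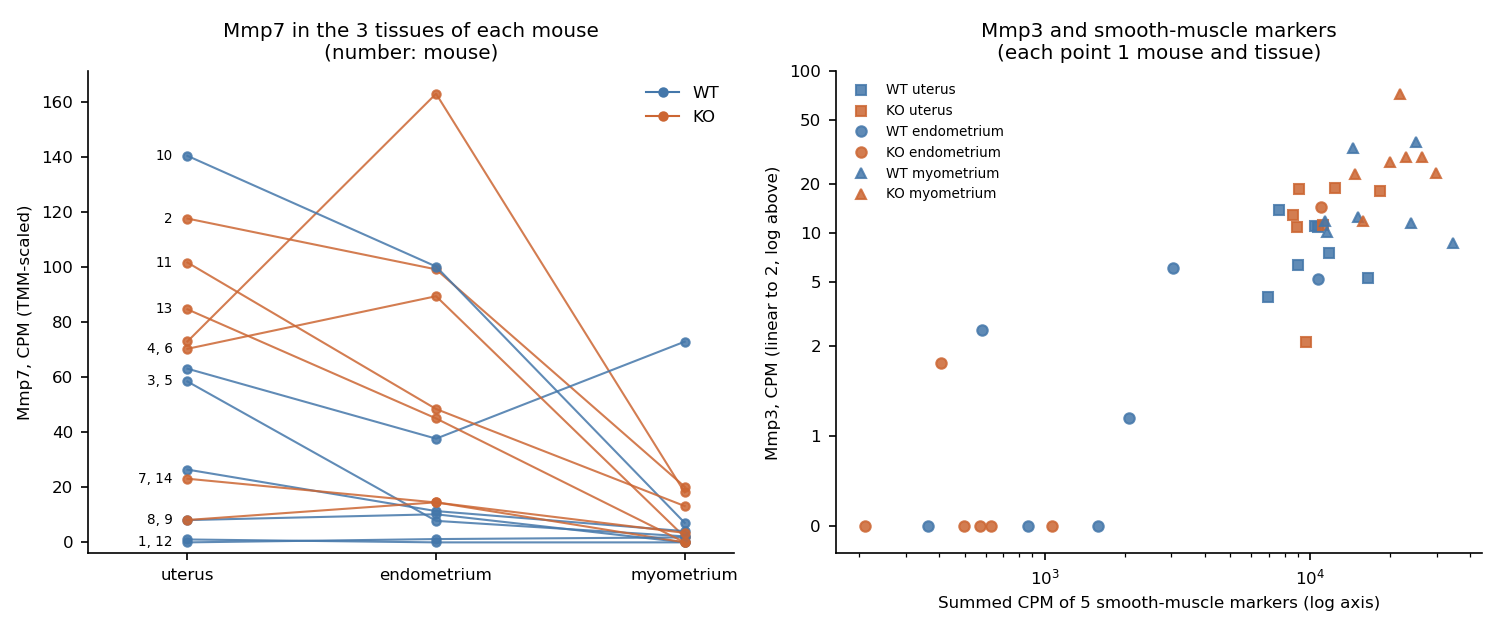
Left, Mmp7 in CPM in the uterus, endometrium and myometrium of each of the 14 mice, joined by a line and numbered by mouse, for WT (blue) and KO (orange). Right, Mmp3 in CPM (linear to 2, log above) against the summed CPM of 5 smooth-muscle markers (log axis), with a point for each of the 42 samples. Mice with high Mmp7 in uterus were mostly high in endometrium too, and Mmp3 at 0 occurred only in endometrium samples, with marker sums of at most 1594 CPM.

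Mmp2 (NCBIM37 chr8:95351227-95377316) and Mmp14 (chr14:55050441-55060095), both on the plus strand, work as a pair, since the membrane-bound enzyme Mmp14 activates the proenzyme of the gelatinase Mmp2, with Timp2 as the bridge between them. Mmp2 had medians of 94.6 CPM in WT myometrium (51.5 to 275), 127.7 CPM in WT endometrium (91.0 to 573.5) and 111 CPM in WT uterus (79.3 to 284.2). In KO the medians were 149.4 CPM in myometrium (84.98 to 188.3), 128.9 CPM in endometrium (74.6 to 197.8) and 100.9 CPM in uterus (40.3 to 239.7). All 6 groups overlapped, and Mmp2 passed in none of the 10 comparisons. Endometrium exceeded myometrium in 6 of 7 WT mice, by 0.79 ± 0.37 on the log2 scale (adjusted p = 0.186, edgeR), and passed on leaving out mouse 10 (1.26, adjusted p = 0.0318). The highest WT endometrium level, 573.5 CPM, was that of mouse 3, the sample that stood apart in smooth-muscle markers. The next highest was 282 CPM, in mouse 12.

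Mmp2 also differed between libraries of a single mouse. The labels gave 3 libraries to the endometrium of KO mouse 13, and in these Mmp2 stood at 119.6 CPM (98.4 to 144.1, exact Poisson 95% interval, counting error only), 66.9 CPM (48.0 to 90.7) and 292.1 CPM (257.7 to 329.8), before TMM scaling. None of the intervals overlapped, and the highest was 4.37 times the lowest. Mmp14, Timp2 and Timp3 also had pairs of libraries whose intervals did not overlap, with ranges of 1.75, 1.60 and 1.83 times, and no other member with counts in all 3 libraries varied by more than 1.83 times. Between the 2 libraries of the myometrium of WT mouse 12 Mmp2 differed 2.10 times and Mmp3, on 4 and 10 counts, 2.32 times.

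Mmp14 was lower in whole uterus than in myometrium in both genotypes. Its lowest, median and highest levels were 154.9, 207.5 and 246.1 CPM in WT myometrium, 76.4, 173.9 and 233.5 CPM in WT endometrium and 65.5, 91.4 and 198.6 CPM in WT uterus. In KO they were 138.5, 211.4 and 315.5 CPM in myometrium, 97.9, 192.6 and 275.3 CPM in endometrium and 39.5, 80.3 and 214.3 CPM in uterus. The groups overlapped, with 6 of 7 WT and 5 of 7 KO mice lower in uterus than in myometrium. The log2 fold change was −0.85 ± 0.23 in WT (adjusted p = 0.0167, edgeR) and −0.96 ± 0.29 in KO (adjusted p = 0.0257).

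The Mmp14 median in whole uterus was below that of both layers in WT and in KO, and in KO the same was true of the medians of Mmp2, Timp2 and Timp3. Against endometrium the Mmp14 difference was −0.47 ± 0.28 in WT (adjusted p = 0.446, edgeR) and −0.85 ± 0.32 in KO (adjusted p = 0.208). With mouse as a replicate block the KO value passed (−1.03, adjusted p = 0.0346). With spike-in scaling neither difference from myometrium passed (−0.09 in WT and −0.43 in KO), where the median of all genes moved by 0.71 and 0.43. Relative to that median both values were −0.84. The WT call was lost without mouse 3, 8 or 12 (adjusted p = 0.0502 to 0.0593) and the KO call without mouse 4, 6, 9, 11 or 13 (0.0519 to 0.127).

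Mmp11 (NCBIM37 chr10:75385967-75400678, minus strand), stromelysin-3, which is activated inside the cell by furin, had similar medians across tissues. Its group medians lay between 19.0 CPM (WT myometrium) and 23.7 CPM (KO endometrium). KO endometrium had the widest range, 6.92 to 180.4 CPM, with the high value in mouse 6, which also had the highest KO uterus level at 98.2 CPM. Mmp11 passed in none of the 10 comparisons, and the smallest adjusted p was 0.096, for endometrium over myometrium in KO (1.20 ± 0.50, edgeR). With spike-in scaling that value passed (1.66, adjusted p = 0.0128, and 1.08 relative to the shifted median), and so did WT uterus over myometrium (1.13, adjusted p = 0.033, and 0.38 relative to the shifted median). Within plate rows A to C the KO value was 1.93 and within rows D to F its sign turned (−0.26). Gm867 overlaps Mmp11 on the same strand and is near identical to it in sequence there, so counts of the pair could have been split.

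Adamts1 (NCBIM37 chr16:85794072-85803358, minus strand), a secreted protease of the related ADAMTS family that cuts the proteoglycans versican and aggrecan and is induced in the ovary by the ovulatory hormone surge, was higher in muscle. Its lowest, median and highest levels were 22.5, 51.6 and 85.6 CPM in WT myometrium and 8.94, 22.6 and 32.4 CPM in WT endometrium. The groups overlapped between 22.5 and 32.4 CPM, but endometrium was lower in 7 of 7 mice, by −1.28 ± 0.34 on the log2 scale (adjusted p = 0.0109, edgeR). In KO the levels were 7.78, 48.8 and 100.6 CPM in myometrium and 16.4, 25.4 and 58.8 CPM in endometrium, lower in 6 of 7 mice by −0.89 ± 0.38 (adjusted p = 0.109), and with mouse as a replicate block the KO value passed (−0.79, adjusted p = 0.0337). In uterus the medians were 35.7 CPM in WT and 33.9 CPM in KO, and no comparison with uterus passed. The WT call was lost without mouse 7 (−1.11, adjusted p = 0.0603), in rows D to F (−0.60, adjusted p = 0.683) and with spike-in scaling (−1.07, adjusted p = 0.0595). Those rows hold 2 WT mice.

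Among the inhibitors, Timp2 (NCBIM37 chr11:118162383-118217054, minus strand) had the smallest p between the WT layers. It inhibits most metalloproteinases and takes part in the activation of Mmp2. In WT its lowest, median and highest levels were 183.2, 213.5 and 413.7 CPM in myometrium, 78.9, 130.2 and 144.7 CPM in endometrium and 97.2, 141.7 and 396.6 CPM in uterus. The WT layers did not overlap, and endometrium was lower in 7 of 7 mice by −1.13 ± 0.24 on the log2 scale (2.2-fold; adjusted p = 0.0018, edgeR). Within plate rows A to C (5 WT mice) and D to F (2 WT mice) the difference kept its direction, at −0.90 (adjusted p = 0.0651) and −1.56 (adjusted p = 0.0991), but not the call. A second gene, BC100451, overlaps Timp2 on the same strand.

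In KO the Timp2 levels were 199.4, 298.9 and 390.8 CPM in myometrium, 109.2, 175.7 and 476.4 CPM in endometrium and 69.9, 108.3 and 316.6 CPM in uterus. Endometrium was lower in 6 of 7 mice by −0.57 ± 0.26 (adjusted p = 0.136, edgeR), and mouse 11 was the exception, at 476.4 CPM against 315.4 CPM in its myometrium. Without mouse 11 the difference was −0.97 (adjusted p = 0.0033), and with mouse as a replicate block it was −0.71 (adjusted p = 0.00878). KO uterus was lower than KO myometrium in 7 of 7 mice, by −1.16 ± 0.26 (adjusted p = 0.00273), and WT uterus was lower in 6 of 7 by −0.28 ± 0.29 (adjusted p = 0.583). With spike-in scaling the WT value changed sign to 0.45, and neither the KO value (−0.69, adjusted p = 0.138) nor that of the WT layers (−0.96, adjusted p = 0.0822) passed. Relative to the median of all genes, which that scaling shifted, the 3 values were −0.30, −1.11 and −1.17.

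Timp3 (NCBIM37 chr10:85763117-85812251, plus strand), which is unusual among the family in binding to the matrix, had medians of 135.1 CPM in WT and 143.5 CPM in KO myometrium, 91.0 and 87.9 CPM in endometrium and 97.8 and 60.2 CPM in uterus. Endometrium was lower than myometrium in 6 of 7 KO mice by −0.64 ± 0.23 (adjusted p = 0.0466, edgeR) and in 5 of 7 WT mice by −0.44 ± 0.27 (adjusted p = 0.326). Uterus was lower than myometrium in 6 of 7 KO mice by −1.03 ± 0.33 (adjusted p = 0.0325) and in 6 of 7 WT mice by −0.56 ± 0.26 (adjusted p = 0.173). The first KO call was lost on leaving out any 1 of mice 2, 4, 6, 11, 13 and 14 (adjusted p = 0.054 to 0.119), and the second without mouse 2, 4, 6, 11 or 13 (0.0575 to 0.118). With spike-in scaling neither KO call held (−0.18, adjusted p = 0.722, and −0.59, adjusted p = 0.314), and in WT uterus against myometrium the sign turned (0.16). Relative to the shifted median of all genes these 3 values were −0.75, −1.01 and −0.59.

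Timp1 (NCBIM37 chrX:20447292-20451861, plus strand), the inducible and soluble inhibitor, had lowest, median and highest levels of 24.9, 48.9 and 102.9 CPM in WT myometrium and of 20.1, 27.8 and 34.5 CPM in WT endometrium. The groups overlapped, and endometrium was lower in 6 of 7 mice by −0.99 ± 0.29 (adjusted p = 0.0231, edgeR). In KO the levels were 24.9, 36.0 and 55.2 CPM in myometrium and 16.4, 30.5 and 48.2 CPM in endometrium, a difference of −0.18 ± 0.29 (adjusted p = 0.722). The test of the difference between genotypes gave 0.81 ± 0.41 (unadjusted p = 0.0537, adjusted p = 0.993, edgeR). In whole uterus Timp1 had medians of 42.8 CPM in WT and 59.3 CPM in KO and exceeded endometrium in 7 of 7 mice of both genotypes, by 0.74 ± 0.27 (adjusted p = 0.177) and 0.85 ± 0.30 (adjusted p = 0.162), but did not pass. The WT layer call was lost without mouse 1 (−0.67, adjusted p = 0.164), 7 (0.0542) or 8 (0.0512), in rows D to F (−0.20, adjusted p = 0.90) and with spike-in scaling (−0.71, adjusted p = 0.256). Only 2 WT mice are in rows D to F.

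Whole uterus was compared with each layer in turn. None of 9 in WT and none of 10 in KO passed between uterus and endometrium, where 1.6% (1.05% as higher, 0.55% as lower) and 1.25% (0.926% as higher, 0.324% as lower) of all genes passed. At an unadjusted p under 0.05 there were 3 members in each genotype, where 15.1% and 14.4% of all genes passed, and with DESeq2 1 passed in WT (Mmp3) and none in KO. Between uterus and myometrium 1 of 9 members was lower in WT (Mmp14), where 12% of genes passed, 6.73% as higher and 5.32% as lower. In KO 4 of 10 were lower (Mmp3, Mmp14, Timp2 and Timp3) and 1 was higher (Mmp7), where 14.1% of genes passed, 6.06% as lower and 8.03% as higher. At an unadjusted p under 0.05 there were 4 members in WT, where 27.1% of all genes passed, and 7 in KO, where 28.2% did. The KO count was 2 or 3 on leaving out any mouse but 14, with Mmp7 and Timp2 in each of them, and 2 with spike-in scaling (Mmp7 and Timp1, both higher).

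Whether loss of Plag1 changed these genes was asked in each tissue. None of the members tested passed between KO and WT, 9 in uterus, 9 in endometrium and 10 in myometrium, and 0% of all genes did so in any of the 3 tissues (edgeR). At an unadjusted p under 0.05 there was no member in uterus, where 5.64% of all genes passed, 2 in endometrium (5.2% of all genes) and 1 in myometrium (4.22%). DESeq2 and every other alternative also gave 0 members past the adjusted threshold in the 3 tissues.

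**Figure D5:**
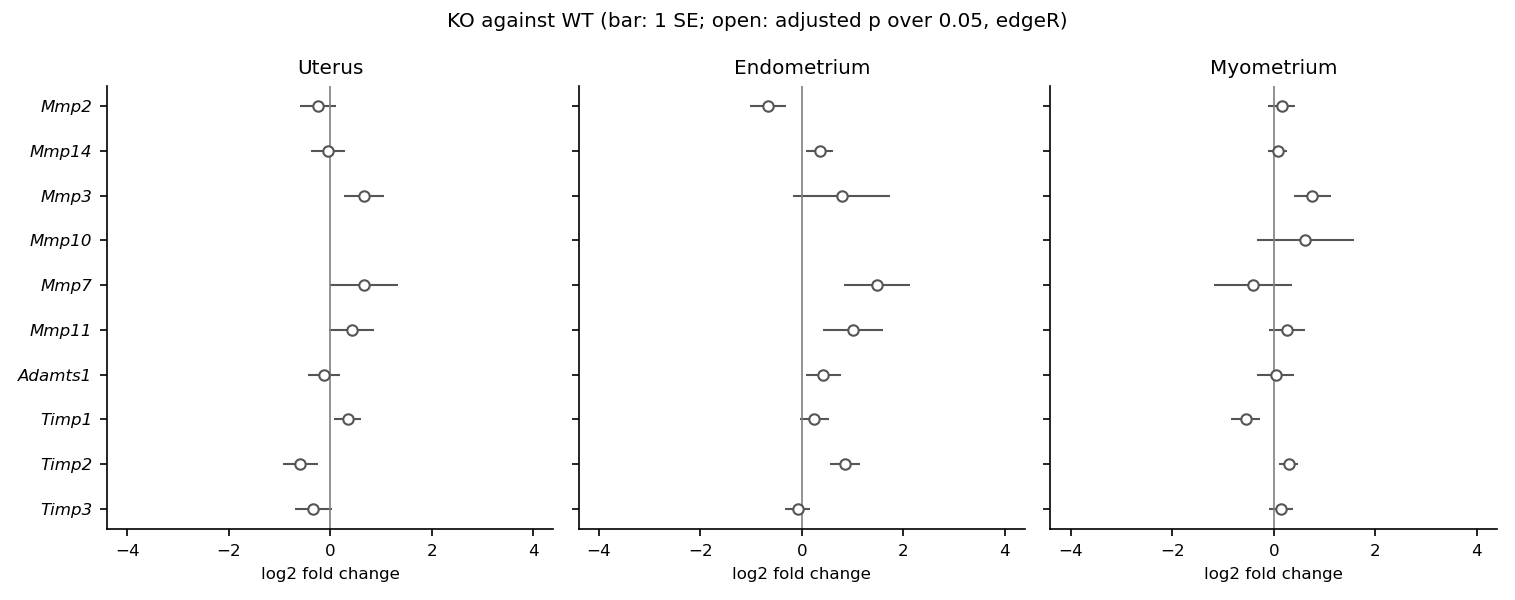
Log2 fold change of each member in KO against WT in uterus, endometrium and myometrium, with bars of 1 SE. All points are open, since none passed an adjusted p of 0.05 in edgeR's quasi-likelihood test, and Mmp7 and Timp2 in endometrium lie farthest from 0 relative to their bars.

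The 2 in endometrium were Timp2 and Mmp7, both higher in KO. Timp2 had a median of 175.7 CPM in KO (109.2 to 476.4) and 130.2 CPM in WT (78.9 to 144.7), a log2 fold change of 0.85 ± 0.30 (unadjusted p = 0.00916, adjusted p = 0.882, edgeR). Without mouse 11, the KO mouse at 476.4 CPM, it was 0.48. Mmp7 had a median of 48.5 CPM in KO and 10.2 CPM in WT, 1.48 ± 0.65 (unadjusted p = 0.0335, adjusted p = 0.937), and within plate rows D to F its sign turned (−0.66). The groups overlapped for both genes, and 5 of the WT mice but 3 of the KO mice were in rows A to C, so genotype and plate rows were partly mixed.

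In myometrium Mmp3 had a median of 27.7 CPM in KO and 11.8 CPM in WT, 0.76 ± 0.37 (unadjusted p = 0.0476, adjusted p = 1.00, edgeR), with a value of −0.06 within rows D to F. In uterus the smallest p was also that of Mmp3 (13.0 against 7.56 CPM; 0.66 ± 0.39, unadjusted p = 0.106, adjusted p = 0.889). What the design can bound differed by gene, and is given here as approximate 95% intervals of the log2 fold change. They use a normal approximation with the SE and are somewhat narrower than the F test implies. For Mmp14 in myometrium the interval was −0.29 to 0.45 and for Timp2 −0.08 to 0.67. For Mmp7 in uterus it was −0.64 to 1.97 and for Mmp3 in endometrium −1.10 to 2.66. The difference between endometrium and myometrium passed the test of a change with genotype for none of the 10 members and for 0% of 14314 genes (edgeR interaction), and 4.6% of genes and no member had an unadjusted p under 0.05.

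The wider protease system was taken from lists of related genes. Of 17 other matrix metalloproteinases, 6 could be tested between the layers in WT and 7 in KO, and 2 were lower in endometrium in WT (Mmp9 and Mmp17), while in KO 1 was lower (Mmp9) and 1 higher (Mmp15). Of 18 other ADAMTS genes 13 were tested in each genotype and 3 were lower in each (Adamts2 and Adamts3 in both, with Adamts5 in WT and Adamts8 in KO). Of 9 genes of the plasmin system and other activators (plasminogen activators and their inhibitors, furin and basigin), 7 were tested and none passed in WT, while in KO 1 was higher (Bsg) and 1 lower (Plau). Over all genes 13.2% passed between the layers in WT (6.39% as lower) and 19.3% in KO (8.71% as lower), and nothing particular to these lists is read from the counts. Of Timp4 and Reck only 1 could be tested and did not pass. No gene of these lists passed between KO and WT in any tissue or in the interaction.

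The 3 genes of these lists that were lower in endometrium in both genotypes were Mmp9, Adamts2 and Adamts3. The other gelatinase, Mmp9, had medians of 6.33 CPM in WT and 5.86 CPM in KO myometrium and of 0 in both endometrium groups, with log2 fold changes of −2.92 ± 0.84 (adjusted p = 0.0195, edgeR) and −3.38 ± 0.77 (adjusted p = 0.00292), on 3 and 4 counts in endometrium. Myometrium held 27 and 26 Mmp9 counts, with 3 of 7 WT and 5 of 7 KO samples at or under the floor. Adamts2, a procollagen N-proteinase, had medians of 62.8 CPM in myometrium and 14.4 CPM in endometrium in WT and of 63.1 and 15.2 CPM in KO, with log2 fold changes of −1.92 ± 0.34 (adjusted p = 0.00031) and −1.61 ± 0.36 (adjusted p = 0.0023). Adamts3, its paralog, had medians of 6.64 CPM in WT and 6.92 CPM in KO myometrium and of 0 in both endometrium groups, with log2 fold changes of −2.59 ± 0.75 (adjusted p = 0.0204) and −3.13 ± 0.79 (adjusted p = 0.00624). These rest on 5 and 4 counts in endometrium, where all 7 samples of each group were at or under the floor. In myometrium 3 of 7 samples in each genotype were at or under it.

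The genes whose levels ran most like each member over the 42 samples are given as a description. The best matches of Mmp3 were Lmod1, Pnck and Ppp1r14a (Pearson r of log2 CPM 0.874, 0.872 and 0.870), of which Lmod1 and Ppp1r14a are smooth-muscle contractile regulators. Those of Mmp7 were Upk3bl (0.906), Sftpd (0.843) and Fam213a (0.825), and Upk3bl was also the best match after group means were removed (0.864). Sftpd encodes a secreted surfactant protein of epithelia. Those of Mmp14 were Med13l (0.816), Klf9 (0.780) and Nfix (0.744), those of Mmp11 Pamr1 (0.763), Ctsl (0.712) and Hexa (0.690), and those of Timp2 Tns1 (0.709), Atp2b4 (0.708) and Stk40 (0.707).

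For the rest the likeness was weaker. The best r was 0.668 for Adamts1 (Tgfbr2), 0.654 for Timp1 (Pdcd5), 0.646 for Timp3 (Dpysl3) and 0.607 for Mmp2 (Bod1l). Between members, the highest values were 0.53 for Timp2 with Timp3, 0.53 for Mmp14 with Timp2 and 0.53 for Mmp3 with the sparse Mmp10, and Mmp2 with Mmp14 had 0.25. These correlations are descriptions over samples that share tissue, animal and library pool, among 4256 genes with a mean of at least 20 CPM.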

How the data were processed

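The deposited file is a table of raw counts per gene that the authors made from STRT RNA-seq of 10 ng RNA per library. Per the study's methods for its RNA-seq data, reads were demultiplexed, molecular identifiers joined, and reads trimmed, aligned to mm9 with TopHat and counted over UCSC gene models with Homer, while the submitters' processing notes name HTSeq and mm9. Which tool counted these libraries, tool versions, the use of strand and the treatment of multiply mapped reads are not given in the sources used here. The 45 libraries held 24422 genes and 92 ERCC spike-ins. Repeat libraries of a mouse (3 of the endometrium of KO mouse 13, 2 of the myometrium of WT mouse 12) were summed, which left 7 mice per group. Poisson intervals and floors cover counting error only.

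Counts were tested with edgeR 4.0.16 (R 4.3.3) by the quasi-likelihood F test with TMM factors, separately for each comparison, over genes that reached 1 CPM in 5 or more of its samples, with Benjamini-Hochberg adjustment over all genes tested and a threshold of 0.05. Fold changes are log2 values ± SE, with SE taken as the absolute log2 value over the square root of the F statistic. Tissues were compared within genotype without the mouse in the model. The 3 tissues of a mouse number come from 1 animal, and deviations from group means correlated within mice with a mean r of 0.117 (−0.008 to 0.310, 42 pairs), so the fit with mouse as a replicate block is given where it changes a call. Alternatives were DESeq2 1.42.0, relative log expression and spike-in scaling, other filters and thresholds, the first library of a mouse alone, a single fit of all 6 groups, plate rows and leaving out each mouse.

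The members and lists were chosen with earlier results of these data known. All members are named, other pathway genes only where they passed between the layers in both genotypes (a few others in counts of 5 or fewer are named after their values were seen), and 3 genes per member by correlation. Gene positions are from GENCODE on NCBIM37, promoters from RefSeq on GRCm38.p6. Scripts were tested on simulated data.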

Additional observations from a re-analysis of the deposited data

Results flagged for a closer look

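Within each group of 7 mice, the highest or lowest log2 level of a member stood apart from its neighbour by a large share of the group's range in 5 of the 55 groups examined, where about 5% of groups would do so by chance. Another 5 groups, at or under the floor of 3 counts throughout, were not examined.

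Mmp3 in the endometrium of KO mouse 13 was high, at 14.5 CPM from 35 counts, with the next mouse at 1.82 CPM, and its summed smooth-muscle markers were 10966 CPM. All 3 libraries of that sample held Mmp3, at 11.9, 14.7 and 16.9 CPM. Mmp7 in the myometrium of WT mouse 5 was high, at 72.9 CPM, with the next mouse at 7.11 CPM, and its summed epithelial markers were 709.8 CPM against at most 250.2 CPM in the other WT mice. The part of these cells in either level was not tested.

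In the endometrium of KO mouse 11 Timp2 was high, at 476.4 CPM with the next mouse at 198.3 CPM, and Timp3 was low, at 54.0 CPM with the next at 85.2 CPM. Mmp3 in the uterus of the same mouse was low, at 2.12 CPM from 1 count, with the next mouse at 11.0 CPM.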

How the results depend on the processing

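The number of members past the threshold was 0 between genotypes in each tissue, and 0 for the interaction, under every alternative run. For endometrium against myometrium it was 4 in WT, 1 with spike-in scaling, 1 within plate rows D to F and 2 to 5 on leaving out 1 mouse; in KO it was 3, and 5 with mouse as a replicate block and 1 within rows D to F. For uterus against endometrium it was 0 in WT, but 1 with DESeq2, 2 with spike-in scaling, 1 at an adjusted p under 0.1, 1 with mouse as a replicate block and 0 to 1 on leaving out 1 mouse; in KO it was 0, but 2 with the block, 1 within rows A to C and 0 to 1 on leaving out 1 mouse. For uterus against myometrium it was 1 in WT, 2 with spike-in scaling, with a filter at 10 CPM, at an adjusted p under 0.1 and with the block, 0 within rows A to C and 0 to 2 on leaving out 1 mouse; in KO it was 5, 2 with spike-in scaling, 2 within rows A to C, 1 within rows D to F and 2 to 4 on leaving out 1 mouse. The block changed no call of a member beyond those given with each gene. Shares of all genes under the alternatives are not given, so no excess of members is read from these counts.

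Member values with an unadjusted p under 0.05, or with the smallest p of their comparison, were followed singly. Among these the sign turned within rows D to F for Mmp7 between genotypes in endometrium (−0.66) and Mmp3 between genotypes in myometrium (−0.063). It also turned there for Mmp11 between layers in KO (−0.26) and Timp1 in the interaction (−0.14). With spike-in scaling it turned for Timp3 in WT uterus against myometrium (0.16). The within-row fits hold fewer mice; otherwise the cause was not tested. Of 1331 alternative values for the 62 other member values, 101 changed sign, 0 of them past the threshold. Spike-in scaling gave 12 of these changes. They include Adamts1 (0.13), Timp1 (0.49) and Timp2 (0.45) in WT uterus against myometrium. Mmp10, Mmp3 in endometrium and Mmp7 in myometrium are limited by depth.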
